A study of Mus musculus with 11 samples.

Results

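RNA of isolated parietal cells, the acid-secreting cells of the stomach, was set against RNA of the stomach cells that remained once parietal cells had been taken out. Each fraction was measured on 1 Affymetrix array, and these 2 arrays are 2 of the 11 in the series, the other 9 being whole stomachs. Both fractions came from adult C57Bl/6 mice, for which no drug, transgene or deletion is named. The labels state neither the sex and age of the mice, nor the number pooled into a fraction, nor how the cells were separated. The second fraction is described as every stomach cell type except parietal cells, so each difference is a contrast with a mixture. The comparison asks which transcripts are richer in the parietal cell and which in its neighbours.

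Each value is a level on a log2 scale after robust multi-array averaging (RMA), and a difference is the level in isolated parietal cells minus the level in other stomach cells. A difference of 1 is a 2-fold ratio and a difference of 2 is a 4-fold ratio. One probe set stood for each of 22180 genes, the one with the highest mean over the 2 arrays. With 1 array per fraction there was no replicate error, no test was possible, and every difference is a description of these 2 arrays. RNA from fewer cells of a type and less RNA per cell of that type cannot be told apart in such samples.

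Parietal cells pump protons into the gland lumen through an ATPase that takes potassium back in exchange. Potassium must therefore be returned to the lumen through channels, chloride must leave by the same membrane, and bicarbonate must leave through the opposite one. The pump is stored in internal tubules and vesicles and reaches the surface on stimulation by histamine, acetylcholine and gastrin. The pump runs on ATP, and mitochondria fill a large share of the cell. The cells around it in the gland are mucous cells of the pit and neck, pepsinogen-making chief cells, hormone-making endocrine cells and tuft cells.

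Over all 22180 genes the median difference was 0.02, with the middle 50% of genes between -0.29 and 0.38. At least 1 log2 unit higher in isolated parietal cells were 1402 genes (6.32%), and 1437 genes (6.48%) were at least 1 lower. At least 2 higher were 290 genes (1.31%), and 457 genes (2.06%) were at least 2 lower. Past 2 in either direction were 747 genes (3.37%). Among the 11090 genes whose mean was above the median of all genes, 10.6% were at least 1 higher and 10.5% at least 1 lower, and 2.45% were at least 2 higher and 3.79% at least 2 lower. Within 1 unit of equality lay 19341 genes, 87.2% of all. Olfactory receptors, sensory genes of the nose, gave a picture of genes at the dim end of the arrays. Of 1105 measured, 16 (1.45%) were at least 1 higher in isolated parietal cells and 9 (0.814%) at least 1 lower, and 0 were past 2. Where a gene had several probe sets, the SD of the difference over them had a median of 0.29. Of 169 such genes past a difference of 1, 139 had all their probe sets on the same side of 0. The plot of differences against mean level shows how far the lists described next stand from the bulk of genes.

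**Figure D1:**
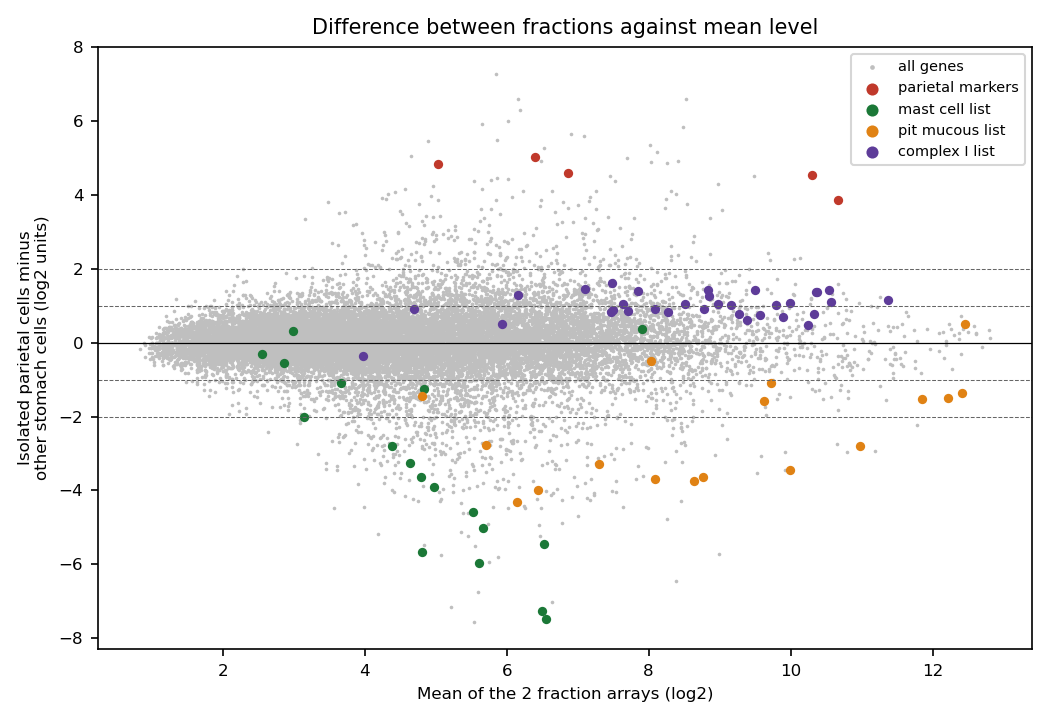
Difference between isolated parietal cells and other stomach cells (log2 units, vertical axis) against the mean of the 2 arrays (log2, horizontal axis), 1 point a gene, with dashed lines at differences of 1 and 2 either way. The 5 parietal markers lie between 3.86 and 5.03, the complex I list mostly near 1, and the pit mucous and mast cell lists mostly below 0.

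The label of the parietal fraction was checked first against its defining genes. Trim50, a ubiquitin ligase of the pump-bearing tubules and vesicles, had a level of 8.91 in isolated parietal cells and 3.88 in other stomach cells, a difference of 5.03. Slc26a7, a chloride and bicarbonate transporter, stood at 7.46 in isolated parietal cells and 2.62 in other stomach cells (difference 4.84). Kcne2, the accessory subunit of the potassium channel that feeds the pump, stood at 9.16 in isolated parietal cells and 4.56 in other stomach cells (difference 4.60). All of these differed by more than 4 log2 units. Atp4a, the catalytic subunit of the proton pump, had 12.58 in isolated parietal cells and 8.03 in other stomach cells, which is 23.4-fold higher. Atp4b, its glycosylated partner subunit, had 12.60 in isolated parietal cells and 8.74 in other stomach cells, which is 14.5-fold higher. The levels of both pump subunits in the other stomach cells were above the median gene of that array (4.0), so pump transcripts were measured there too. Whether they came from parietal cells left behind was not tested.

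Transcripts of other cells were likewise measured in the parietal fraction. Of 17 genes of the pit mucous cell, which coats the stomach surface, 15 were at least 1 lower in isolated parietal cells and 0 at least 1 higher. Their summed level, in log2, was 14.13 in isolated parietal cells and 15.45 in other stomach cells, and none of the 17 was under the median gene of either array. Gkn1, a gastrokine secreted by pit cells, had 11.73 in isolated parietal cells and 13.10 in other stomach cells. The trefoil peptide gene Tff1 had 11.08 in isolated parietal cells and 12.62 in other stomach cells, and the mucin gene Muc5ac 8.27 in isolated parietal cells and 11.72 in other stomach cells. Psca, a surface antigen gene of the list, was the single member with a positive difference, at 12.72 in isolated parietal cells and 12.20 in other stomach cells. What part such RNA has in the differences below was not tested.

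The proton pump and its potassium supply stood higher as a group. Of 10 measured genes, 9 had positive differences, 6 of them of at least 2 (against 1.31% of all genes), and the median was 2.09. Kcnq1, the channel that Kcne2 joins, had a level of 7.86 in isolated parietal cells and 5.74 in other stomach cells. The inwardly rectifying potassium channel gene Kcnj16 had 8.84 in isolated parietal cells and 5.61 in other stomach cells, and its relative Kcnj15 had 8.60 in isolated parietal cells and 6.53 in other stomach cells. These differences, 2.11, 3.23 and 2.07, were smaller than those of Kcne2 and the pump. Kcnj10, another inward rectifier, was close to even (4.42 in isolated parietal cells, 3.91 in other stomach cells), as was the basolateral cotransporter Slc12a2 (9.82 in isolated parietal cells, 9.44 in other stomach cells). Atp1b1, a subunit of the sodium pump, had a difference of 0.87. Kcne3, a sister of Kcne2 that pairs with the same channel in other epithelia, lay the other way at 3.48 in isolated parietal cells and 5.04 in other stomach cells. Kcne1, the partner of Kcnq1 in the heart, stood higher at 7.48 in isolated parietal cells and 4.67 in other stomach cells. Across all 89 genes with a potassium channel symbol, 7 (7.87%) were at least 1 higher and 7 at least 1 lower, close to the share among all genes. The lower ones include Kcnq1ot1, a non-coding RNA gene that shares the symbol stem and is no channel. At least 2 higher were 5 of the 89, against 1.31% of all genes, and at least 2 lower was 1.

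Transporters of chloride, bicarbonate and water were split. Among 18 genes, 5 were at least 2 higher, 6 were at least 1 lower, and the median was -0.44. The higher ones were anion and cation-chloride transporters. Slc26a9, a chloride channel and transporter of the luminal membrane, had 11.40 in isolated parietal cells and 5.56 in other stomach cells. Clic6, a chloride channel family gene, had 10.42 in isolated parietal cells and 6.65 in other stomach cells. Slc4a2, the basolateral exchanger that trades bicarbonate for chloride, had 8.31 in isolated parietal cells and 5.10 in other stomach cells, and the potassium-chloride cotransporter Slc12a7 had 7.71 in isolated parietal cells and 5.54 in other stomach cells. Each of these exceeded a 4-fold ratio. Car2, the cytosolic carbonic anhydrase that supplies protons and bicarbonate, was even between the fractions, at 10.99 in isolated parietal cells and 11.21 in other stomach cells. The membrane carbonic anhydrase gene Car9 was lower, at 5.65 in isolated parietal cells and 8.06 in other stomach cells, while the mitochondrial Car5b (8.60 in isolated parietal cells, 6.45 in other stomach cells) and cytosolic Car13 (8.13 in isolated parietal cells, 6.46 in other stomach cells) were higher. The water channel Aqp3 had a difference of -2.74, at 3.50 in isolated parietal cells and 6.24 in other stomach cells. Aqp4, a basolateral water channel of parietal cells, was near the median gene on both arrays (4.41 in isolated parietal cells, 3.84 in other stomach cells). The sodium-bicarbonate cotransporter Slc4a4 (-1.83), the chloride channel Clcn2 (-1.41) and the sodium/proton exchanger Slc9a4 (-1.30) were also lower. The anion channel Cftr (-1.16) was under the median gene on both arrays, at 2.33 in isolated parietal cells and 3.48 in other stomach cells. Slc9a3, another sodium/proton exchanger, best known from intestine and kidney, went against Slc9a4 with 9.72 in isolated parietal cells and 5.33 in other stomach cells.

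**Figure D2:**
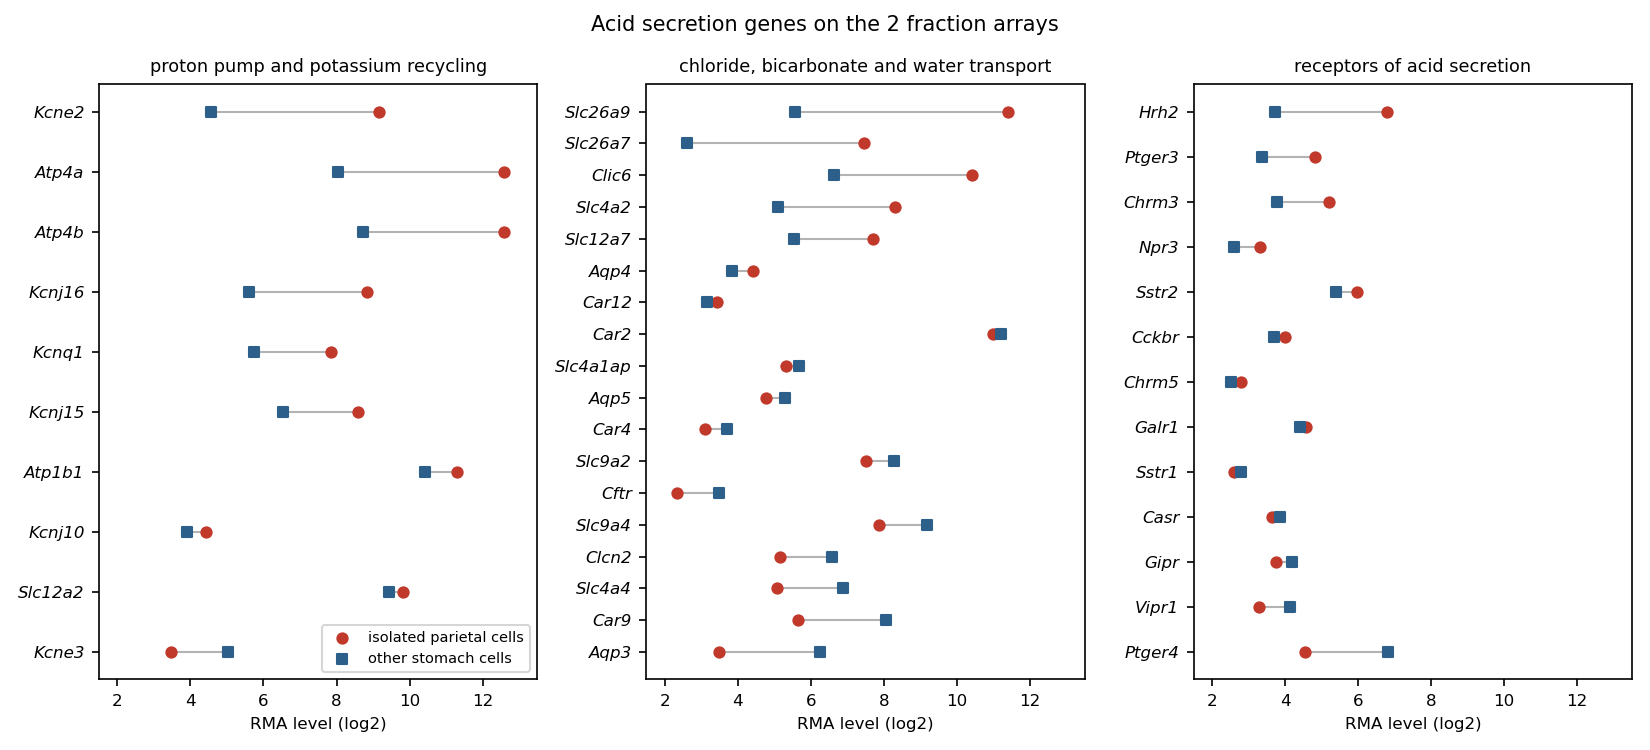
Level (RMA, log2, horizontal axis) of each measured gene of 3 lists in isolated parietal cells (circles) and other stomach cells (squares), joined by a line. In the pump and potassium list 9 of 10 circles lie to the right of their squares, whereas the transport list has 7 of 18 and the receptor list 8 of 13 to the right.

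Receptors for the signals that govern acid secretion were dim. Of 13 measured, 6 had a mean over the 2 arrays above the median of all genes. Hrh2, the histamine receptor that drives acid secretion, had 6.80 in isolated parietal cells and 3.74 in other stomach cells, the only receptor difference past 2 on the higher side. The muscarinic acetylcholine receptor Chrm3 had 5.20 in isolated parietal cells and 3.78 in other stomach cells. Ptger3, the prostaglandin receptor through which acid is restrained, had 4.83 in isolated parietal cells and 3.38 in other stomach cells. Receptors of both stimulating and restraining signals therefore stood at least 1 higher. Cckbr, the gastrin receptor, was at the dim end of both arrays with 4.0 in isolated parietal cells and 3.69 in other stomach cells, so its difference of 0.31 cannot be read as enrichment. Ptger4, another prostaglandin receptor, was lower (4.54 in isolated parietal cells, 6.82 in other stomach cells). The somatostatin receptor Sstr2 had 5.98 in isolated parietal cells and 5.39 in other stomach cells.

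Downstream of the receptors most genes lay within 1 unit, as did 87.2% of all genes. Of 18 genes of cAMP and calcium signalling, 2 were at least 1 higher and 1 at least 1 lower, against 6.32% and 6.48% of all genes. Both higher ones exceeded 2. They were Itpr2, a calcium release channel of the endoplasmic reticulum (8.61 in isolated parietal cells, 5.86 in other stomach cells), and the protein kinase A anchor Akap11 (6.47 in isolated parietal cells, 4.25 in other stomach cells). The catalytic subunit Prkaca (-0.60) and the G protein gene Gnas (0.20) lay within 1 unit, and Gnaq, which couples muscarinic receptors to phospholipase C, had -1.07. The trafficking machinery of tubules, vesicles and canaliculus was near even as well, with a median of 0.20 over 22 genes. Besides Trim50, no gene of that list was at least 1 higher. Ezr, which links the canalicular membrane to actin, had 10.27 in isolated parietal cells and 9.89 in other stomach cells. The vesicle fusion gene Vamp2 had a difference of 0.49 and the recycling GTPase gene Rab11a one of 0.44. Rab25, a close relative of Rab11a, was lower at 7.58 in isolated parietal cells and 9.20 in other stomach cells. Among all 58 Rab genes by symbol, 6 (10.3%) were at least 1 higher and 10 (17.2%) at least 1 lower. The shares were 6.32% and 6.48% of all genes, and 10.6% and 10.5% of genes above the median mean. Rab27a (3.64 in isolated parietal cells, 7.52 in other stomach cells) and Rab3d (5.63 in isolated parietal cells, 8.32 in other stomach cells), both of regulated granule secretion, had the 2 lowest differences of the family.

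Other genes tied to the parietal cell by earlier work gave a median of 0.99 over 20, with 10 at least 1 higher and 2 at least 1 lower. This list, like the others, was chosen with earlier results of these data known, so its counts are no independent check. Ckb, the brain-type creatine kinase that regenerates ATP, had 10.49 in isolated parietal cells and 5.59 in other stomach cells. Mfsd4a, a membrane carrier gene, had 9.13 in isolated parietal cells and 5.71 in other stomach cells. Esrrg, an orphan nuclear receptor of oxidative tissues, had 8.79 in isolated parietal cells and 5.42 in other stomach cells. All 3 differed by more than 3 units. Tcn2, the plasma carrier of vitamin B12, stood higher by 1.38. Cblif, intrinsic factor, which mice make in chief cells rather than parietal cells, was lower at 5.59 in isolated parietal cells and 8.67 in other stomach cells. The potassium channel gene Kcnk1 was lower too (-1.42).

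Growth factors and morphogens divided between the fractions, with 3 of 23 at least 1 higher and 6 at least 1 lower. Over all genes these shares were 6.32% and 6.48%, and among genes above the median mean 10.6% and 10.5%. Egf, epidermal growth factor, had 5.86 in isolated parietal cells and 3.45 in other stomach cells. The angiogenic factors Vegfa (9.02 in isolated parietal cells, 7.33 in other stomach cells) and Vegfb (7.65 in isolated parietal cells, 6.27 in other stomach cells) were the other 2. Of further ligands of the EGF receptor, Hbegf had 7.61 in isolated parietal cells and 8.85 in other stomach cells, Btc 5.05 in isolated parietal cells and 6.54 in other stomach cells, and Tgfa 4.14 in isolated parietal cells and 5.10 in other stomach cells. Shh, a hedgehog ligand that adult parietal cells are known to make, had 4.25 in isolated parietal cells and 5.88 in other stomach cells. Bmp2, of the bone morphogenetic protein family, had the lowest difference of the list at -2.72, with 4.72 in isolated parietal cells and 7.44 in other stomach cells. Il33, an alarm cytokine, had -2.03.

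The nuclear-encoded respiratory chain stood higher across nearly its whole length and by a similar, modest amount. Of 33 measured subunits of complex I, which passes electrons from NADH into the chain, 32 had positive differences and 18 (54.5%) were at least 1 higher, against 6.32% of all genes. None was past 2, and the highest was Ndufs1 with 8.28 in isolated parietal cells and 6.67 in other stomach cells. Ndufs5, the single negative one at -0.37, was below the median gene on the parietal array. Complexes II and III, which take electrons to cytochrome c, were positive in 13 of 13 genes with a median of 0.93, led by the succinate dehydrogenase gene Sdha (10.05 in isolated parietal cells, 8.38 in other stomach cells). ATP synthase was positive in 14 of 16 genes with a median of 0.64.

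Complex IV, cytochrome c oxidase, held the one respiratory gene past 2. Cox7a1, a subunit form of heart and skeletal muscle, had 11.12 in isolated parietal cells and 6.83 in other stomach cells, a 19.5-fold ratio. Its widely expressed counterpart Cox7a2 had 11.70 in isolated parietal cells and 10.74 in other stomach cells, a difference of 0.97 like that of other subunits. The 10 measured genes encoded by mitochondrial DNA had positive differences throughout, yet the median was 0.27 and none reached 1. ND6 had 12.47 in isolated parietal cells and 11.98 in other stomach cells, and COX3 12.21 in isolated parietal cells and 12.16 in other stomach cells. These probe sets lay near the top of the scale on both arrays, where the highest value was 13.42 in isolated parietal cells and 13.46 in other stomach cells.

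The enzymes that feed the chain followed it. All 19 genes of pyruvate dehydrogenase and the tricarboxylic acid cycle had positive differences, with a median of 1.10 and 11 at least 1 higher. Dld, a subunit shared by several dehydrogenases, had 9.97 in isolated parietal cells and 8.07 in other stomach cells, and Idh2, mitochondrial isocitrate dehydrogenase, 9.45 in isolated parietal cells and 7.60 in other stomach cells. Of 20 fatty acid oxidation genes, 18 were positive and 9 at least 1 higher, with a median of 0.90. Etfdh, which hands electrons from fat to the chain, had 9.56 in isolated parietal cells and 7.93 in other stomach cells, and Acadm, medium-chain acyl-CoA dehydrogenase, 9.36 in isolated parietal cells and 7.77 in other stomach cells. Acaa2, the thiolase of the same path, was an exception at -0.80. Ketone use was represented by 3 genes. Oxct1, the enzyme that activates ketone bodies for oxidation, had 10.40 in isolated parietal cells and 6.36 in other stomach cells, and Acat1, which splits the product, had 9.48 in isolated parietal cells and 7.54 in other stomach cells. Bdh1, which interconverts the 2 main ketone bodies, was even (0.14).

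The machinery that builds mitochondria was less set apart than the chain. The mitochondrial ribosome had a median of 0.33 over 71 genes by symbol, with 10 (14.1%) at least 1 higher and 0 at least 1 lower. Protein import had a median of 0.40 over 21 genes, with 2 at least 1 higher. At least 1 higher were 6.32% of all genes and 10.6% of genes above the median mean, which 68 of the 71 and all 21 were. Both counts were therefore not far from the share of such brighter genes. Among 21 regulators of mitochondrial biogenesis the large differences sat in a few. Ppargc1a, the coactivator PGC-1alpha, had 9.71 in isolated parietal cells and 5.20 in other stomach cells. Perm1, a regulator of muscle mitochondria induced by that coactivator, had 5.11 in isolated parietal cells and 2.97 in other stomach cells, and Prkaa2, a catalytic subunit of the energy sensor AMPK, 6.28 in isolated parietal cells and 4.49 in other stomach cells. The other AMPK subunit gene Prkaa1 had a difference of 0.36, Esrra, the relative of Esrrg, 0.49, and the polymerase gene Polrmt 0.09. Pparg, a nuclear receptor of fat storage, was lower at 7.22 in isolated parietal cells and 9.0 in other stomach cells.

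**Figure D3:**
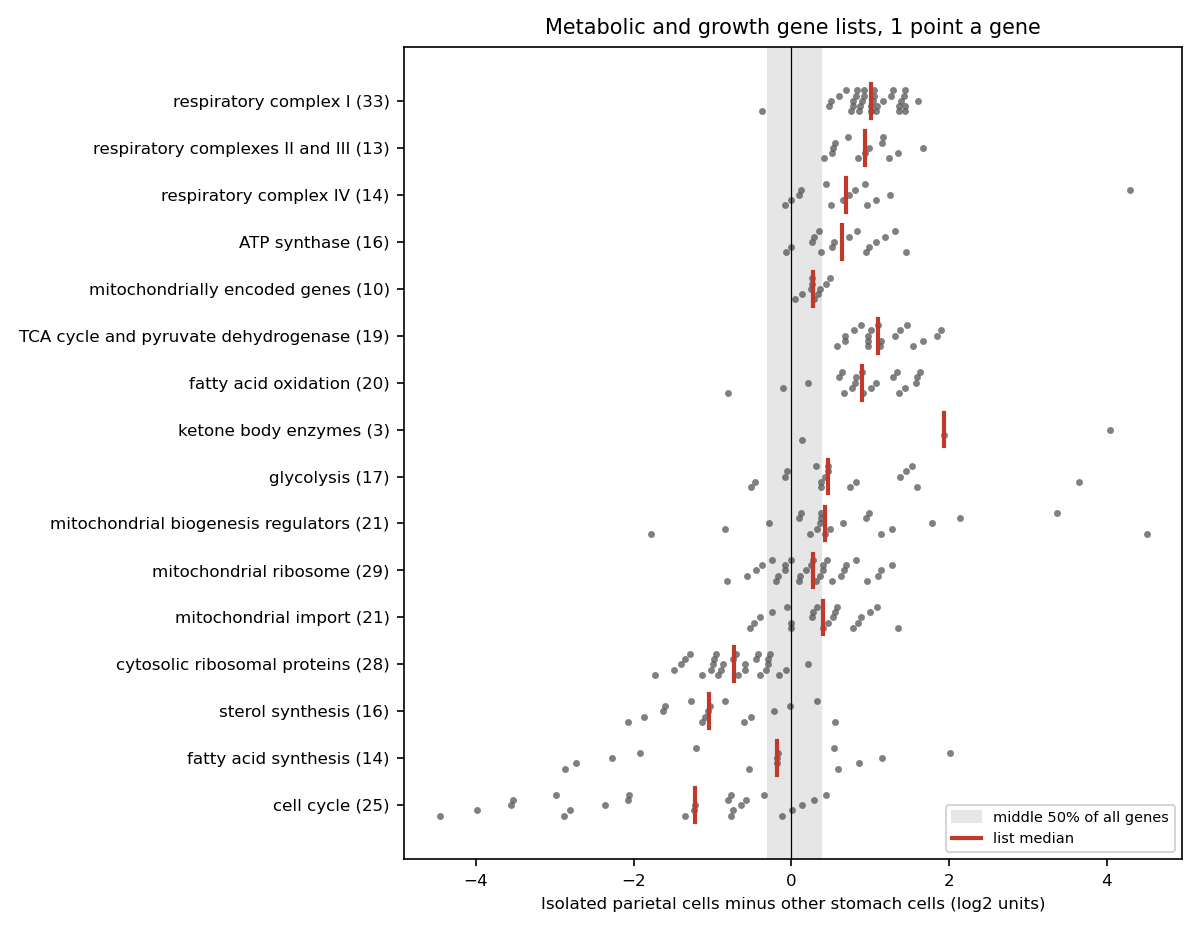
Differences between isolated parietal cells and other stomach cells (log2 units, horizontal axis) for 16 gene lists, 1 point a gene, with the number measured in parentheses, the list median as a vertical mark and the middle 50% of all genes shaded. Complex I and the tricarboxylic acid cycle have medians of 1.01 and 1.10, and the cytosolic ribosome, sterol synthesis and cell cycle lists medians of -0.72, -1.04 and -1.22.

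Genes that take up and carry lipid held some of the widest differences, and they pointed both ways. Of 27 measured, 6 were at least 2 higher and 4 at least 2 lower. Lpl, lipoprotein lipase, had 10.20 in isolated parietal cells and 5.19 in other stomach cells, and the apolipoprotein gene Apoa1 10.70 in isolated parietal cells and 5.83 in other stomach cells. Fabp1, the liver form of the fatty acid binding proteins, had 8.62 in isolated parietal cells and 2.68 in other stomach cells. Fabp2, the intestinal form, had 5.86 in isolated parietal cells and 10.65 in other stomach cells, so the 2 relatives differed in opposite directions by 5.93 and -4.79. Fabp3, the heart form, had 10.90 in isolated parietal cells and 8.47 in other stomach cells, although its second probe set gave -0.42. Fabp4, the fat cell form, had 1.43 in isolated parietal cells and 3.85 in other stomach cells, under the median gene on both arrays. Apob, the core protein of chylomicrons, was lower at 3.77 in isolated parietal cells and 6.62 in other stomach cells. Apobec1, which edits its transcript, was lower too, at 3.52 in isolated parietal cells and 5.93 in other stomach cells. The apolipoprotein genes Apoa1 and Apob therefore lay on opposite sides.

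Glycolysis stood modestly higher as a list (median 0.46 over 17 genes), with 13 positive differences. At least 1 higher were 5 genes and at least 1 lower 0, against 6.32% and 6.48% of all genes. Ldhb, the lactate dehydrogenase subunit of heart, had 10.06 in isolated parietal cells and 6.41 in other stomach cells. Ldha, the subunit of fast muscle, had 5.04 in isolated parietal cells and 5.09 in other stomach cells. Pdk4, the kinase that shuts pyruvate dehydrogenase, had 10.86 in isolated parietal cells and 9.27 in other stomach cells, and Pfkl, the liver phosphofructokinase, 6.96 in isolated parietal cells and 5.43 in other stomach cells. Pfkfb3, a bifunctional enzyme that makes the activator of that kinase, was among the 40 largest differences at 8.28 in isolated parietal cells and 4.17 in other stomach cells. The monocarboxylate transporter Slc16a5 stood at 10.38 in isolated parietal cells and 6.25 in other stomach cells. Among genes that buffer energy, Slc25a4, the ADP/ATP carrier of heart and muscle, had 8.90 in isolated parietal cells and 6.57 in other stomach cells, while the form of dividing tissues, Slc25a5, had 11.21 in isolated parietal cells and 10.33 in other stomach cells. The creatine transporter Slc6a8 had a difference of 1.69. The muscle creatine kinase Ckm (3.01 in isolated parietal cells, 3.18 in other stomach cells) was dim on both arrays, unlike Ckb.

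Several related genes thus differed unequally, and 16 such pairs, chosen after their values were seen, are set side by side in the plot of related genes. Tnni3, cardiac troponin I, had 10.69 in isolated parietal cells and 5.54 in other stomach cells, against 5.12 in isolated parietal cells and 7.53 in other stomach cells for Tnni2, the form of fast skeletal muscle. Acacb, the acetyl-CoA carboxylase of the mitochondrial surface, had a difference of 2.01, and its cytosolic counterpart Acaca one of 0.54. Fut9 (7.72 in isolated parietal cells, 3.57 in other stomach cells) and Fut4 (3.58 in isolated parietal cells, 5.80 in other stomach cells), both fucosyltransferases that make Lewis-type sugars, lay on opposite sides. So did Creb3l2 (6.55 in isolated parietal cells, 4.12 in other stomach cells) and Creb3l1 (6.29 in isolated parietal cells, 8.49 in other stomach cells), transcription factors of the secretory pathway.

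**Figure D4:**
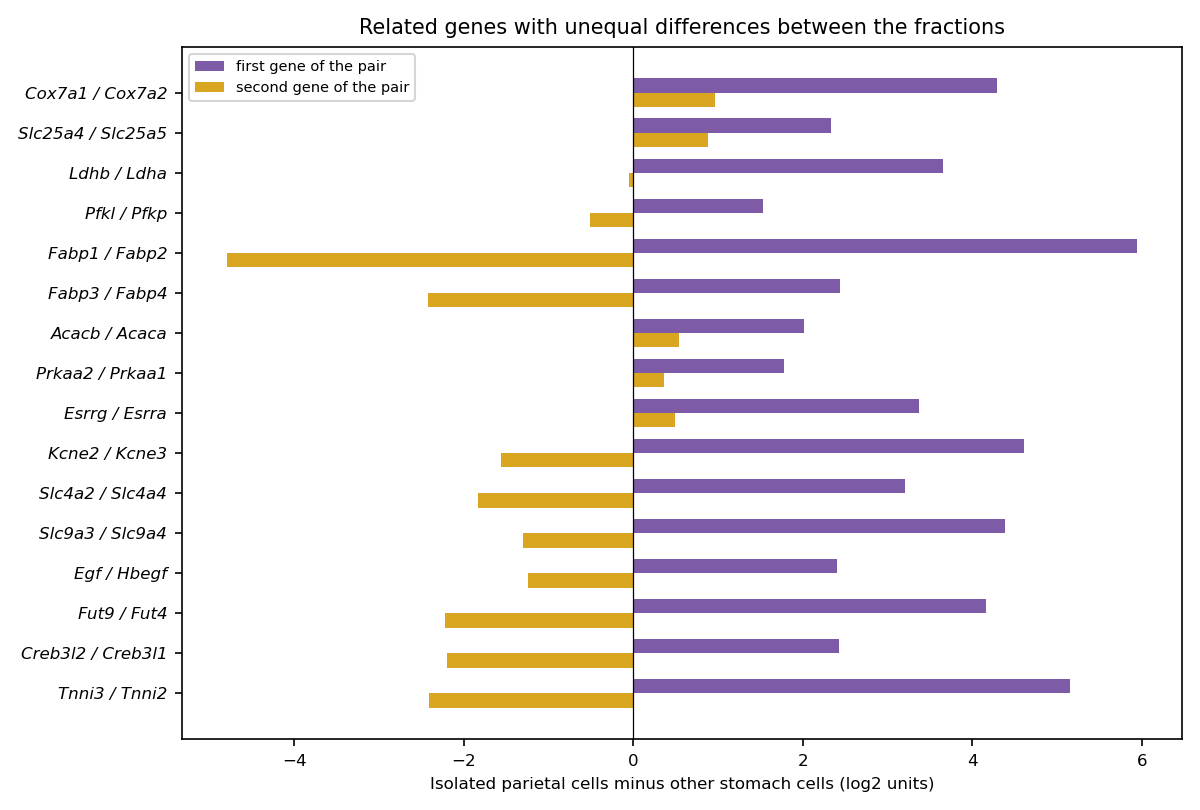
Difference between isolated parietal cells and other stomach cells (log2 units, horizontal axis) for 16 pairs of related genes picked for unequal values, with the first gene of each pair above the second. The bars run from 5.93 for Fabp1 to -4.79 for Fabp2.

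Sterol synthesis genes stood lower, while fatty acid synthesis genes were mixed. Of 16 sterol synthesis genes, 9 were at least 1 lower, 0 at least 1 higher, and 14 were negative, with a median of -1.04. Hsd17b7, a reductase of the path, had 3.05 in isolated parietal cells and 5.12 in other stomach cells, and Insig1, a sterol-responsive regulator, 6.49 in isolated parietal cells and 8.35 in other stomach cells. Fdps, which makes farnesyl diphosphate, had a difference of -1.63 and Cyp51, a demethylase of the path, -1.60. Of 14 fatty acid synthesis genes, 5 were at least 1 lower and 2 at least 1 higher, with a median of -0.18, inside the middle 50% of all genes. The higher ones were Acacb (2.01) and Acss2, which makes acetyl-CoA from acetate (1.16). Me1, malic enzyme, a source of NADPH, had 6.10 in isolated parietal cells and 8.97 in other stomach cells, and Fasn, fatty acid synthase, 5.74 in isolated parietal cells and 8.02 in other stomach cells. Fads1, a desaturase, had -2.73.

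Iron genes included the hormone hepcidin, whose genes Hamp and Hamp2 sit beside each other and were both far higher. Hamp had 11.82 in isolated parietal cells and 5.23 in other stomach cells, and Hamp2 9.90 in isolated parietal cells and 4.29 in other stomach cells. The transcripts come from near-identical copies, so a probe set of one may also read the other. Their promoters are alike as well, with 227 of 247 aligned bases before the gene start identical (91.9%). They are shown 5′ to 3′ from RefSeq, build GRCm38.p6, because both genes differ in the same direction, with capitals on the 20 aligned bases that differ and on the 3 bases at one end of each, the last of Hamp and the first of Hamp2, that have no partner in the other window. Hamp lies on the minus strand at chr7:30944030-30944279 and Hamp2 on the minus strand at chr7:30924182-30924431.
Hamp: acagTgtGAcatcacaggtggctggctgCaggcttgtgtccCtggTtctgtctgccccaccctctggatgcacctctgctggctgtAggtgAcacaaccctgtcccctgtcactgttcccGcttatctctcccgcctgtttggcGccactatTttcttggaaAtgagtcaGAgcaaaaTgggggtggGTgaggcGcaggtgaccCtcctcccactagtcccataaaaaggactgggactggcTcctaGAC
Hamp2: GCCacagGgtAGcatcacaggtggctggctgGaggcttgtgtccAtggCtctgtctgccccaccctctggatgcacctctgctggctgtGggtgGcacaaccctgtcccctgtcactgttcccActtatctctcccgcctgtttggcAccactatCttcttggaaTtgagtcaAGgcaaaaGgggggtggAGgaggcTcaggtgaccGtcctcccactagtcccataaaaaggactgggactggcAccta
The other iron genes differed less. Slc40a1, the iron exporter that hepcidin acts on, had 4.66 in isolated parietal cells and 2.79 in other stomach cells. The scaffold Iscu for iron-sulphur clusters was 1.23 higher, the mitochondrial iron importer Slc25a37 had -1.47, and the transferrin receptor Tfrc 0.45.

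Genes of vesicle acidification and degradation were near even as lists, with medians of 0.27 and 0.42. Of 19 genes of the vacuolar proton ATPase, a pump of another class than the gastric one, 3 were at least 1 higher. The share was 6.32% of all genes and 10.6% of genes above the median mean, which 15 of the 19 were. Atp6v1d led with 9.62 in isolated parietal cells and 8.07 in other stomach cells. Atp6v0d2, a subunit form of osteoclasts and macrophages, was lower at 1.83 in isolated parietal cells and 5.08 in other stomach cells. Of 28 genes of lysosome and autophagy, 21 had positive differences. At least 1 higher were 7 and at least 1 lower 2, against 6.32% and 6.48% of all genes. Gabarapl1, which coats autophagosomes, had 9.63 in isolated parietal cells and 7.01 in other stomach cells. Ctsd, a lysosomal protease, had 10.88 in isolated parietal cells and 9.69 in other stomach cells, whereas Ctss, the cathepsin of antigen-presenting cells, had 3.66 in isolated parietal cells and 5.91 in other stomach cells.

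Clock genes were higher in a subset. Of 14 measured, 7 were at least 1 higher and 0 at least 1 lower, with a median of 1.05. Ciart, a repressor of the clock, had 6.26 in isolated parietal cells and 3.83 in other stomach cells, and Cry2, another repressor, 5.97 in isolated parietal cells and 3.62 in other stomach cells. Nr1d1, the nuclear receptor that represses the clock gene Arntl, had 10.07 in isolated parietal cells and 8.09 in other stomach cells. Arntl itself had a difference of -0.32 and Per1 was listed at exactly the same value, 6.67, on both arrays, one of 1051 genes so listed, for which no cause was found. The labels do not state the time of day at which each fraction was taken.

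Genes of protein synthesis and cell division lay lower. Among 63 cytosolic ribosomal protein genes by symbol, 7 were positive and 12 (19.0%) at least 1 lower, with a median of -0.59. Rps19 had 8.78 in isolated parietal cells and 10.51 in other stomach cells, but the lowest and highest of its probe sets gave -1.73 and 0.18, and ribosomal protein genes have many near-identical pseudogenes, so single genes of this family are uncertain. The 73 small nucleolar RNA genes, guides of ribosomal RNA modification that lie in introns of host genes, had a median of -0.66, with 26 (35.6%) at least 1 lower and 4 (5.48%) at least 1 higher. Snord110 had 3.07 in isolated parietal cells and 7.70 in other stomach cells, and Snord15a 3.78 in isolated parietal cells and 8.26 in other stomach cells. Protein factors of ribosome biogenesis were even (median -0.01 over 17 genes). Of 25 cell cycle genes, 13 were at least 1 lower and 10 at least 2 lower, with 0 at least 1 higher. Ube2c, which marks mitotic proteins for destruction, had 3.58 in isolated parietal cells and 8.03 in other stomach cells, and Rrm2, which makes deoxynucleotides, 2.39 in isolated parietal cells and 6.38 in other stomach cells. Top2a, a topoisomerase of dividing cells, had 2.74 in isolated parietal cells and 6.27 in other stomach cells. These dividing-cell genes were under the median gene of the parietal array. The linker histone H1f5 was also among the 40 lowest, at 2.09 in isolated parietal cells and 7.59 in other stomach cells. Its family did not follow it as a whole. The 31 histone genes found by symbol had a median of -0.15, with 6 at least 1 lower and 1 at least 1 higher.

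Epithelial neighbours of the parietal cell were lower to unequal degrees. Neck mucous genes had a median of -1.79 over 15, with Gkn3 at 5.04 in isolated parietal cells and 9.31 in other stomach cells and the mucin gene Muc6 at 4.62 in isolated parietal cells and 8.70 in other stomach cells. Olfm4, a progenitor gene of the intestine, was an exception at 5.57 in isolated parietal cells and 2.93 in other stomach cells. Enzymes that build mucin sugars had 10 of 26 genes at least 1 lower, led by Gcnt3 (5.47 in isolated parietal cells, 9.49 in other stomach cells) and Galnt6 (3.46 in isolated parietal cells, 6.93 in other stomach cells). The 2 members at least 1 higher were B4galnt2, which makes the Sda blood group sugar (8.62 in isolated parietal cells, 3.12 in other stomach cells), and Fut9 with a difference of 4.16. Keratins were never at least 1 higher among 53 genes, and 10 (18.9%) were at least 1 lower. Krt20 of pit cells had 5.65 in isolated parietal cells and 8.95 in other stomach cells, and Krt19 7.15 in isolated parietal cells and 9.83 in other stomach cells.

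Chief cell genes were mixed. The list median was -0.03 over 13 genes, yet 5 were at least 1 lower, digestive enzymes among them. Clps, colipase, had 9.32 in isolated parietal cells and 12.27 in other stomach cells, and Pga5, a pepsinogen, 4.38 in isolated parietal cells and 7.15 in other stomach cells. Pgc, progastricsin, had 10.67 in isolated parietal cells and 12.90 in other stomach cells. The summed level of the list was 11.45 in isolated parietal cells and 13.70 in other stomach cells. Fgl1, a liver-secreted fibrinogen-like protein placed in this list, was strongly the other way at 8.23 in isolated parietal cells and 3.80 in other stomach cells.

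Of endocrine genes, 5 of 15 hormones and 10 of 24 genes of the secretory machinery were at least 1 lower, and 0 of either list at least 1 higher. Sst, somatostatin, had 3.98 in isolated parietal cells and 8.93 in other stomach cells. Pyy had 3.64 in isolated parietal cells and 6.83 in other stomach cells, and Gcg, glucagon precursor, 3.60 in isolated parietal cells and 5.57 in other stomach cells. The remaining 10 of 15 hormone genes lay within 1 unit, among them Cck, cholecystokinin, at 3.05 in isolated parietal cells and 2.92 in other stomach cells, and Npw, neuropeptide W, at 9.02 in isolated parietal cells and 8.04 in other stomach cells. Cpe, which trims prohormones, had 2.96 in isolated parietal cells and 7.20 in other stomach cells, and Hdc, which makes the histamine of enterochromaffin-like cells and mast cells, 3.02 in isolated parietal cells and 6.27 in other stomach cells. Tuft cells, chemosensory cells of the epithelium, were represented by 18 genes, 9 of them at least 1 lower and 0 at least 1 higher. Rgs13, a regulator of G protein signalling, had 1.60 in isolated parietal cells and 6.78 in other stomach cells. The taste G protein Gnat3 had 2.18 in isolated parietal cells and 5.51 in other stomach cells, and the actin bundler Avil 4.21 in isolated parietal cells and 7.34 in other stomach cells.

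Among immune cells, mast cell genes stood out. Of 18 measured, 14 were at least 1 lower and 12 at least 2 lower, against 6.48% and 2.06% of all genes. Tpsab1, a tryptase gene that RefSeq lists as a transcribed pseudogene, had 3.80 in isolated parietal cells and 9.25 in other stomach cells. Cpa3, the carboxypeptidase of mast cell granules, had 3.24 in isolated parietal cells and 7.81 in other stomach cells. Mcpt4, a chymase, had 1.97 in isolated parietal cells and 7.63 in other stomach cells. Under the median gene were 16 of the 18 on the parietal array and 3 on the other, and the summed level was 8.69 in isolated parietal cells and 12.21 in other stomach cells. Kit, the stem cell factor receptor, did not follow them, with 8.09 in isolated parietal cells and 7.71 in other stomach cells. Of 21 genes common to all white blood cells, 10 were at least 1 lower and 1 at least 1 higher, against 6.48% and 6.32% of all genes. Cd53 had 3.18 in isolated parietal cells and 7.52 in other stomach cells, and Laptm5 3.39 in isolated parietal cells and 6.28 in other stomach cells. The summed level of that list was 9.36 in isolated parietal cells and 10.08 in other stomach cells. Lineage genes of immune cells were uneven. Bright in the mixture were Tyrobp, a signalling adaptor of myeloid and natural killer cells, at 3.28 in isolated parietal cells and 8.20 in other stomach cells, and the granzyme gene Gzmb at 2.97 in isolated parietal cells and 8.78 in other stomach cells. Others were dim in both fractions. Cd3e of T cells was at 2.73 in isolated parietal cells and 2.52 in other stomach cells, Cd79a of B cells at 3.09 in isolated parietal cells and 3.05 in other stomach cells, and Adgre1 of macrophages at 2.32 in isolated parietal cells and 2.13 in other stomach cells. At least 1 lower were 6 of 24 macrophage genes, 5 of 14 neutrophil genes and 3 of 22 T cell genes, against 6.48% of all genes. For B cell genes the count was 0 of 16 and for fibroblast genes 6 of 24. Of these lists, T cell and fibroblast genes had 1 member each at least 1 higher. Il13, a cytokine of type 2 immunity, was bright in the mixture at 4.01 in isolated parietal cells and 8.49 in other stomach cells. The calcium-binding S100 proteins were lower as a family, 9 of 16 (56.2%) by at least 1, with S100a9 of neutrophils at 2.56 in isolated parietal cells and 6.79 in other stomach cells and the epithelial S100a6 at 9.29 in isolated parietal cells and 12.02 in other stomach cells.

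**Figure D5:**
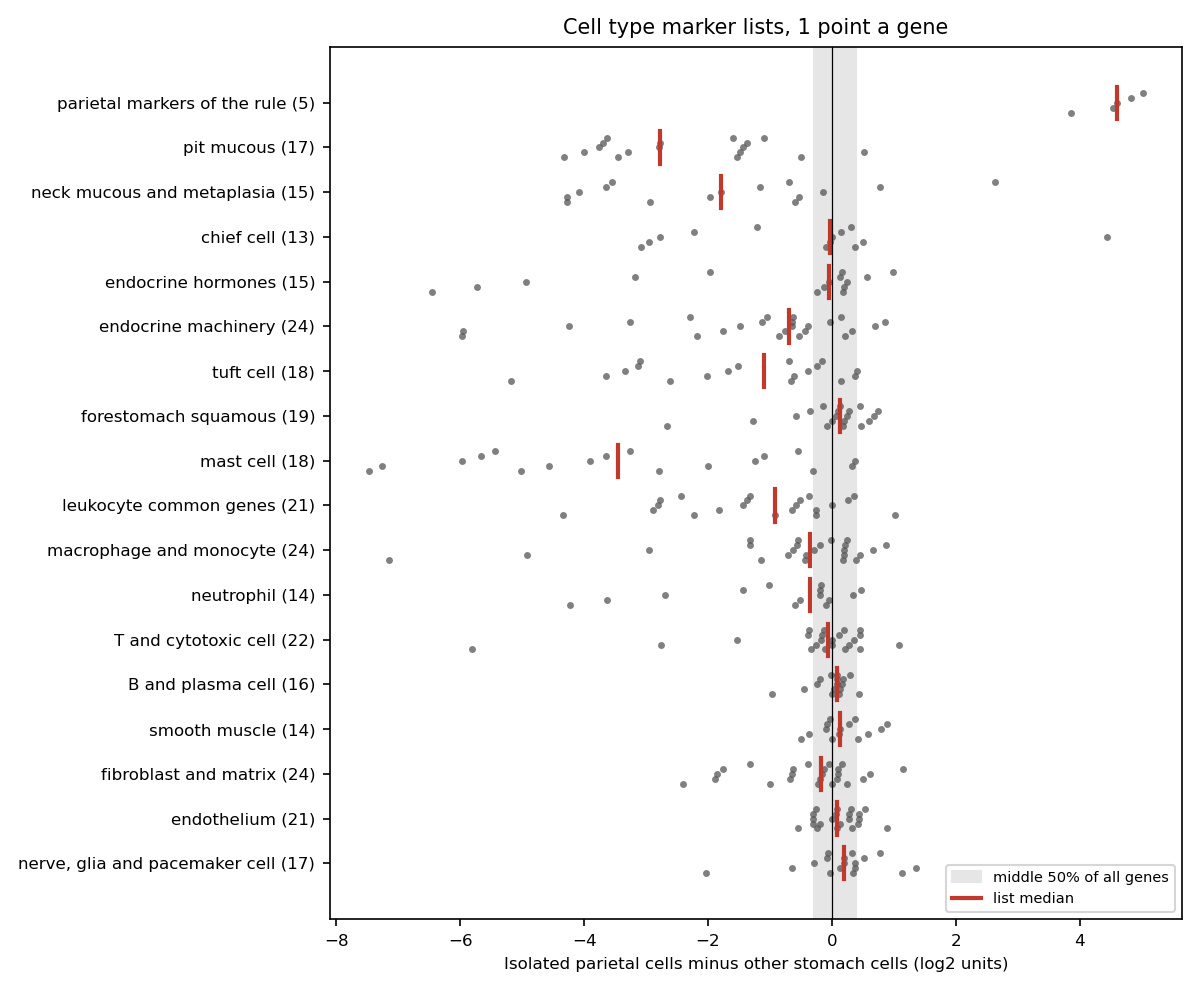
Differences between isolated parietal cells and other stomach cells (log2 units, horizontal axis) for 18 marker lists, 1 point a gene, with the number measured in parentheses, the list median as a vertical mark and the middle 50% of all genes shaded. Parietal markers have a median of 4.60, mast cell and pit mucous lists -3.45 and -2.77, and smooth muscle and endothelium 0.12 and 0.08.

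The label of the second fraction, all stomach cells but parietal ones, was checked in the same way. Markers of muscle and vessels were near even and mostly under the median gene. Of 14 smooth muscle genes, 8 were under the median gene in isolated parietal cells and 9 in other stomach cells, and their summed level was 7.85 in isolated parietal cells and 7.79 in other stomach cells. Acta2, smooth muscle actin, had 4.85 in isolated parietal cells and 4.93 in other stomach cells, and Myh11, smooth muscle myosin, 4.05 in isolated parietal cells and 3.91 in other stomach cells. Of 21 endothelial genes, 17 were under the median gene in isolated parietal cells and 19 in other stomach cells, with summed levels of 7.98 in isolated parietal cells and 7.89 in other stomach cells. Of 19 genes of the squamous forestomach, 8 had a mean above the median gene, among them Sprr1a (11.12 in isolated parietal cells, 10.52 in other stomach cells). The second array therefore carried markers of glandular epithelium and mast cells, while most muscle and vessel markers were no brighter than its median gene.

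Genes outside the lists filled much of the extremes. Pcp4l1, a small calmodulin-binding family gene, had 9.16 in isolated parietal cells and 3.90 in other stomach cells, and Tinag, a basement membrane antigen of kidney tubules, 7.18 in isolated parietal cells and 2.11 in other stomach cells. Fa2h, which hydroxylates fatty acids of sphingolipids, had 10.88 in isolated parietal cells and 5.96 in other stomach cells. Sptssb, a small subunit of the enzyme that begins sphingolipid synthesis, lay opposite at 6.31 in isolated parietal cells and 10.59 in other stomach cells. Sycn, syncollin, named from zymogen granules of the pancreas, had 8.10 in isolated parietal cells and 3.63 in other stomach cells, and Lifr, the receptor of leukaemia inhibitory factor, 9.31 in isolated parietal cells and 5.20 in other stomach cells. Plet1, a surface protein gene of progenitor cells, had 11.75 in isolated parietal cells and 7.23 in other stomach cells. On the lower side stood the annexins Anxa1 (3.16 in isolated parietal cells, 7.76 in other stomach cells) and Anxa3 (4.66 in isolated parietal cells, 9.36 in other stomach cells), and Gch1, which makes the cofactor tetrahydrobiopterin (2.92 in isolated parietal cells, 7.19 in other stomach cells). Cyp11a1, a steroidogenic enzyme, had 2.79 in isolated parietal cells and 7.92 in other stomach cells, though its second probe set was even (-0.04).

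Solute carriers, the largest transporter family, were not shifted as a whole. Of 334, 38 (11.4%) were at least 1 higher and 33 (9.88%) at least 1 lower, with a median of 0.04. Over all genes the shares were 6.32% and 6.48%, and among genes above the median mean 10.6% and 10.5%. Slc5a5, the sodium/iodide symporter, had the lowest difference at 5.19 in isolated parietal cells and 9.27 in other stomach cells. Slc18a2, which loads monoamines into vesicles, had 4.28 in isolated parietal cells and 6.57 in other stomach cells, and Slc7a7, the light chain of an amino acid transporter, had 3.52 in isolated parietal cells and 6.16 in other stomach cells. Within the mitochondrial Slc25 carriers, 11 of 46 (23.9%) were at least 1 higher and 3 (6.52%) at least 1 lower. Slc25a23, an ATP-magnesium carrier, led with 6.76 in isolated parietal cells and 4.31 in other stomach cells.

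MicroRNA genes were measured at the gene or precursor, not as mature molecules. Of 467 genes, 20 (4.28%) were at least 1 higher and 26 (5.57%) at least 1 lower, both under the share among all genes. Mir31 had 2.0 in isolated parietal cells and 5.82 in other stomach cells, and Mir340 3.35 in isolated parietal cells and 5.53 in other stomach cells. Mir680-1 had 5.45 in isolated parietal cells and 2.48 in other stomach cells, and the other 2 genes with the same mature sequence were also higher, Mir680-2 by 1.22 and Mir680-3 by 1.39. Mir23a and Mir27a, whose hairpins lie 79 bases apart, were named after their values were seen. Mir23a had 7.37 in isolated parietal cells and 5.90 in other stomach cells, and Mir27a 6.37 in isolated parietal cells and 4.17 in other stomach cells. Mir23b, a relative of Mir23a on chr13, went the other way, at 4.05 in isolated parietal cells and 5.07 in other stomach cells (difference -1.02). Main mature sequences of Mir23a, Mir27a, Mir680-1, Mir31 and Mir340 follow 5′ to 3′ from RefSeq, build GRCm38.p6. The seed (bases 2 to 8), the part that pairs with targets, is in capitals.
miR-23a-3p, plus strand, chr8:84208563-84208583: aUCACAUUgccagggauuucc
miR-27a-3p, plus strand, chr8:84208727-84208747: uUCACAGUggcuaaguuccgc
miR-680, from Mir680-1, plus strand, chr6:129691541-129691561: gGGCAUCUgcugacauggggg
miR-31-5p, minus strand, chr4:88910614-88910635: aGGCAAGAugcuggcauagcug
miR-340-5p, plus strand, chr11:50069720-50069741: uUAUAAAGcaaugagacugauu
The seeds of the higher Mir23a and Mir27a differ from each other and from those of the lower Mir31 and Mir340.

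Promoters were searched for 2 motifs on both strands, in windows of 250 bases before to 50 bases after each gene start, for the 16990 measured genes with a RefSeq promoter. TCAAGGTCA, the element bound by oestrogen-related receptors such as Esrrg, was rare. It was in the promoters of 1 of 211 genes at least 2 higher in isolated parietal cells (0.474%), 1 of 331 genes at least 2 lower (0.302%) and 62 of all 16990 genes (0.365%). TATAAA, the core of the TATA box, was in the promoters of 21 of 211 genes at least 2 higher (9.95%), 67 of 331 genes at least 2 lower (20.2%) and 2435 of all 16990 genes (14.3%). Past 2 units its share thus stood above that of all genes on the lower side and below it on the higher side. Among the 1058 genes at least 1 lower the share was 14.9%, close to that of all genes. Among the 1081 genes at least 1 higher it was 9.25%. A match is only a run of letters in the window. The last 100 bases before the start are shown for 5 genes of large difference whose window holds it close to the start, picked after the search, with the motif on either strand in capitals. Slc26a9, Ckb and Fabp1 were higher in isolated parietal cells, and Mcpt1 and Mcpt4 lower.
Slc26a9, plus strand, chr1:131743922-131744021: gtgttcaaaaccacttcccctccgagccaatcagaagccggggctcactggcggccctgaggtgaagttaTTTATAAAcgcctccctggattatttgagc
Ckb, minus strand, chr12:111672339-111672438: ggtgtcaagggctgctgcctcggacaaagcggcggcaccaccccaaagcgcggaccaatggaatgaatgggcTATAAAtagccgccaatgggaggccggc
Fabp1, plus strand, chr6:71199779-71199878: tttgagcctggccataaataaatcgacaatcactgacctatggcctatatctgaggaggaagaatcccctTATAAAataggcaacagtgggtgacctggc
Mcpt1, plus strand, chr14:56017864-56017963: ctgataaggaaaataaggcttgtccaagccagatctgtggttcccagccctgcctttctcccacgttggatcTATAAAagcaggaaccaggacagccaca
Mcpt4, minus strand, chr14:56062311-56062410: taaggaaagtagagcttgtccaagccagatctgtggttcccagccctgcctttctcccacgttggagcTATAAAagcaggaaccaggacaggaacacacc
In these windows the forward motif began 28, 28, 30, 28 and 32 bases before the start, in the order shown. Genes of both directions carried it at this place.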

How the data were processed

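Total RNA was amplified, labelled with biotin and hybridised, per the labels' protocols. The authors deposited 1 table of log2 expression values per probe set, made with RMA in Partek per the submitters' processing notes. For software versions, normalization settings and genome build, the sources used here give nothing. The table held 41345 probe sets per array. The medians of the fraction arrays were 3.67 and 3.68. These are values after RMA, so their closeness is no independent check of a common scale. Levels of the fraction arrays were not compared with whole stomach.

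Of 25335 probe sets paired with a gene, 23521 named 1 symbol, and those naming several were left out. Symbols were checked by gene ID for 23328 against RefSeq. The values of both arrays were exactly equal for 1918 probe sets, or 1051 genes. Differences were computed in Python 3.11.15 (pandas 2.3.3), a step checked on simulated data. Loess was run with statsmodels 0.14.6 and was not part of that check. The number of arrays limits the precision. Background signal was not analysed here.

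From 69 gene lists with 1435 entries, the arrays measured 1295, including 5 found by an older symbol. Members and lists were chosen with earlier results of these data known. Genes named were the parietal lists, from each other list the 5 largest and 2 smallest differences, from each symbol family the 5 largest each way, and the 40 largest each way among genes above the median mean. Named outside this rule, after their values were seen, were Acaa2, Acaca, Acss2, Acta2, Adgre1, Apob, Apobec1, Cck, Cd3e, Cd79a, Esrra, Fabp3, Fut4, Gkn1, Kcnq1ot1, Kit, Mir23a, Mir23b, Mir27a, Mir680-2, Mir680-3, Muc5ac, Myh11, Npw, Prkaa1, Prdx3, Arntl, Gata4, Gata6, Slc25a5, Tff1, Tfrc, Tnni2 and any listed in the plot of related genes. Alternatives were normalization, centring, loess, a filter, other probe set rules and a floor.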

Additional observations from a re-analysis of the deposited data

How the results depend on the processing

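With 1 array per fraction, array-to-array error is unknown. Over 7 alternatives, 640 medians changed by less than 0.29, the median SD over probe sets of a gene, and 32 by more. That spread of single genes is a wide yardstick for a median. The largest change of a list median was 0.08 under quantile normalization, 0.01 under median centring, 0.11 under loess, 0.16 with the mean of probe sets and 0.20 with a floor. The array medians were already close (3.67 and 3.68), so quantile normalization and centring had little to change. All 28 recounts of genes past 1 or 2 units stayed within 1.5 times the reported count, with 1173 to 1460 genes at least 1 higher and 1159 to 1583 at least 1 lower. The median of all genes ran from -0.02 to 0.05. No paired analysis was possible because each fraction had 1 array and the labels give them no replicate numbers.

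Most changed medians came with only the genes above the median level, which by construction leaves fewer genes and keeps those bright in 1 fraction. Under it the median was 1.01 for acid secretion receptors, 1.38 for other parietal genes, -0.76 for growth factors, 0.77 for lipid uptake, 0.88 for creatine and energy buffering, -0.98 for drug metabolism and -0.41 for interferon response. It was -1.21 for chief cell, -2.58 for endocrine hormones, -1.45 for endocrine machinery, -2.02 for tuft cell, -1.08 for pancreatic-type enzymes and -1.78 for intestine. For mast cell it was -4.57, for macrophage -1.01, for neutrophil -3.64, for dendritic cell -0.80, for T cell -2.67, for B cell -0.44 and for cytokines -1.09. For fibroblast it was -0.84, for endothelium -0.27 and for adipocyte -0.52. The probe set of lowest mean gave -1.93 for pit mucous, where Foxq1 has a second probe set at that value. The same setting reversed Fabp3 to -0.42 and Rps19 to 0.18.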

Other observations

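The 22 genes that defend against oxidants had a median of 0.04. In isolated parietal cells 3 were at least 1 higher and 6 at least 1 lower, against 6.32% and 6.48% of all genes. Among genes above the median mean, which 20 of the 22 were, the shares were 10.6% and 10.5%. The higher ones were Cat, the catalase of peroxisomes (9.76 in isolated parietal cells, 7.43 in other stomach cells), Sod2, the superoxide dismutase of mitochondria (8.69 in isolated parietal cells, 6.44 in other stomach cells), and the mitochondrial peroxiredoxin gene Prdx3 (difference 1.36). Nqo1, a cytosolic quinone reductase, was lower at 6.61 in isolated parietal cells and 9.84 in other stomach cells, and so was Slc7a11, the cystine importer, at 3.85 in isolated parietal cells and 6.83 in other stomach cells. Among 24 genes of drug metabolism, Cyp2c65 was lowest with 2.83 in isolated parietal cells and 8.06 in other stomach cells. Aldh1a1, which makes retinoic acid, was highest with 11.27 in isolated parietal cells and 8.98 in other stomach cells.

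Genes of the immediate early response, which tissue dissociation is known to induce, had a median of -0.78. Of 25 measured, 10 were at least 1 lower and 1 at least 1 higher. Over all genes these shares were 6.48% and 6.32%, and among genes above the median mean 10.5% and 10.6%. Ccn1 had 5.03 in isolated parietal cells and 8.25 in other stomach cells, and Nr4a1 5.83 in isolated parietal cells and 8.90 in other stomach cells. Of 13 heat shock genes, 3 were at least 1 lower and 0 at least 1 higher, against 6.48% and 6.32% of all genes. Transcription factors of the gastric epithelium had 9 of 28 at least 1 lower and 2 at least 1 higher. Sox2 had 2.99 in isolated parietal cells and 5.93 in other stomach cells, whereas Gata4 (-0.10) and Gata6 (0.24) were close to even. Klf12 had 5.74 in isolated parietal cells and 2.82 in other stomach cells, against Klf4 with 7.12 in isolated parietal cells and 9.90 in other stomach cells.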
